A study of Homo sapiens with 20 samples.

Results

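The nuclear-encoded subunits of the 5 complexes of the mitochondrial respiratory chain were examined in T47D cells, an established line of luminal breast cancer that carries the progesterone receptor. Members were protein-coding genes whose symbol names a structural subunit (NDUFA, NDUFB, NDUFC, NDUFS and NDUFV for complex I, SDHA to SDHD for complex II, UQCR for complex III, COX4 to COX8 for complex IV and ATP5 with a subunit letter for complex V), with assembly factors and pseudogenes left out. This gave 88 of the 57820 genes in the count files: 37 for complex I, 4 for complex II, 9 for complex III, 19 for complex IV and 19 for complex V. NDUFA4 and NDUFA4L2 were placed in complex IV, where RefSeq names them COXFA4 and COXFA4L2, and ATP5IF1, the inhibitor of the ATP synthase, was kept in complex V. A filter on low counts left 82 members for testing, and COX4I2, COX6A2, COX6B2, COX7A1, COX8C and ATP5MGL did not pass it.

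Stranded mRNA sequencing had been deposited for cells transfected with siRNA to BRG1, CBX3 or FOXA1, or with a control siRNA (si-control), each before R5020 (0 h) and after 6 h of it, with 2 libraries in each of the 8 groups. R5020 is a synthetic progestin, used at 10 nM; per the labels the cells had been kept in charcoal-treated serum and then without serum before it was added. BRG1 (gene SMARCA4) is an ATPase of the SWI/SNF chromatin remodelling complex, CBX3 is the heterochromatin protein HP1 gamma, and FOXA1 is a pioneer transcription factor of luminal cells. The labels give neither the siRNA sequences nor the time after transfection, and the first si-CBX3 library at 0 h comes without culture and treatment text. They do not say whether the libraries of a group came from separate cultures, so the p-values measure the spread between libraries, which may be technical.

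The respiratory chain passes electrons from NADH (complex I) and succinate (complex II) through ubiquinone to complex III, cytochrome c and complex IV, where oxygen is reduced. Complexes I, III and IV pump protons across the inner mitochondrial membrane, and complex V, the ATP synthase, uses the gradient to make ATP. Most subunits are encoded in the nucleus and imported, whereas a few core subunits come from the mitochondrial chromosome. NRF1, GABP and other ETS factors, and YY1 are textbook regulators of the nuclear genes. None of these sentences is a result of the data described here.

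The libraries held between 50017255 and 74374857 assigned fragments, and the members took between 0.785% and 1.52% of them. All 37 genes of the mitochondrial chromosome were listed at 0, so the mitochondrially encoded subunits could not be set beside the nuclear ones. Each siRNA target was lower in its own 0 h libraries. In CPM (counts scaled to a common library total by edgeR's TMM factors), SMARCA4 levels were 4.99 and 5.90 against 76.6 and 65.7 in si-control, those of CBX3 6.80 and 6.37 against 242 and 266, and those of FOXA1 61.4 and 62.8 against 389 and 408. SMARCA4 was also higher in si-CBX3 (log2 fold change 1.34) and si-FOXA1 (1.38), and FOXA1 fell with R5020 in si-control (-1.12). The 8 luminal markers summed to 6857 to 12450 CPM, and 11 basal, mesenchymal and leukocyte markers to 31.1 to 63.7 CPM, with PTPRC at most 0.0448; PECAM1 was not matched to a row. Of the latter, CDH2 (2.49), TP63 (2.50) and KRT14 (3.49) rose and VIM fell (-1.36) on the log2 scale in si-FOXA1 at 0 h. Against 49.45 and 44.48 CPM in si-control, those 11 markers together summed to 44.94 and 43.48 CPM in si-FOXA1 at 0 h. Of the luminal markers, ESR1 (-0.60), GATA3 (-0.27), EPCAM (-0.34) and CDH1 (-0.30) fell there. KRT8 (0.88) and KRT18 (0.51) rose, and PGR and KRT19 were not called. The part of these marker changes in the results below was not tested. The headers of the si-CBX3 and si-FOXA1 files record 1 counting thread and those of si-BRG1 and si-control record 8, so a difference in the counting runs cannot be told apart from those siRNAs. The 2 si-BRG1 libraries at 6 h differed more from each other than those of any other group, with a chi-square of 57.2 per gene against 4.23 to 28.1 elsewhere.

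The genes for the ATP synthase catalytic beta subunit and for small subunits of complex IV had the highest levels. In RPKM, which is CPM per kilobase of a gene's exons, over all 16 libraries ATP5F1B (chromosome 12, 57031959 to 57039798, minus strand, hg19) averaged 748 RPKM, with 461 RPKM in the lowest library, 748 RPKM at the median and 1060 RPKM in the highest. COX8A followed at a mean of 323 RPKM, then COX6A1 at 205 RPKM, NDUFS5 at 190 RPKM and COX6B1 at 174 RPKM. The highest of complex III was UQCR10 at 112.5 RPKM and that of complex II was SDHC, a membrane anchor, at 105 RPKM. The median member level was 30.0 RPKM for complex I, 34.2 RPKM for complex II, 64.9 RPKM for complex III, 49.6 RPKM for complex IV and 49.0 RPKM for complex V. These levels share 1 scale per length, but a gene model that joins exons of several transcripts lowers the value of its gene.

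Ubiquitous isoforms carried nearly all of the fragments where a tissue isoform exists. COX4I1 averaged 94.0 RPKM and COX4I2 was listed at 0 in all 16 libraries. COX7A2 averaged 62.6 RPKM and COX7A1, the heart and muscle form, was listed at 0. COX6A2 had 1 fragment, COX8C 6, ATP5MGL 11 and COX6B2 38 over the 16 libraries together. COX7B averaged 33.2 RPKM and COX7B2 0.320 RPKM, and NDUFA4 averaged 114 RPKM against 0.345 RPKM for NDUFA4L2. The 3 genes that encode the same c subunit of the ATP synthase ring were all present: ATP5MC2 averaged 95.0 RPKM, ATP5MC1 50.5 RPKM and ATP5MC3 29.9 RPKM. NDUFA7 (0.845 RPKM) and NDUFV2 (0.517 RPKM) were far below the other complex I genes. Of their exon bases, 29.0% and 28.4% lie in another gene of the same strand. The share was 34.5% for COX8A, which was among the highest members, and 35.2% for NDUFB5. The part of this overlap in the levels was not tested.

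At 0 h the summed level of the 88 members was lower in each knockdown than in si-control, and most of all in si-FOXA1. It was 15390 and 15780 CPM in the si-control libraries, 13140 and 13040 CPM in si-BRG1, 12050 and 11400 CPM in si-CBX3 and 7423 and 7761 CPM in si-FOXA1. The 4 groups did not overlap and stood in that order. After 6 h of R5020 the values were 16350 and 16800 CPM in si-control, 15190 and 12240 CPM in si-BRG1, 13710 and 13070 CPM in si-CBX3 and 7075 and 7165 CPM in si-FOXA1. At 6 h the libraries of si-BRG1 lay on both sides of those of si-CBX3, while si-FOXA1 stayed below all others. In bulk RNA, less RNA per cell and fewer cells of a type cannot be told apart.

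**Figure D1:**
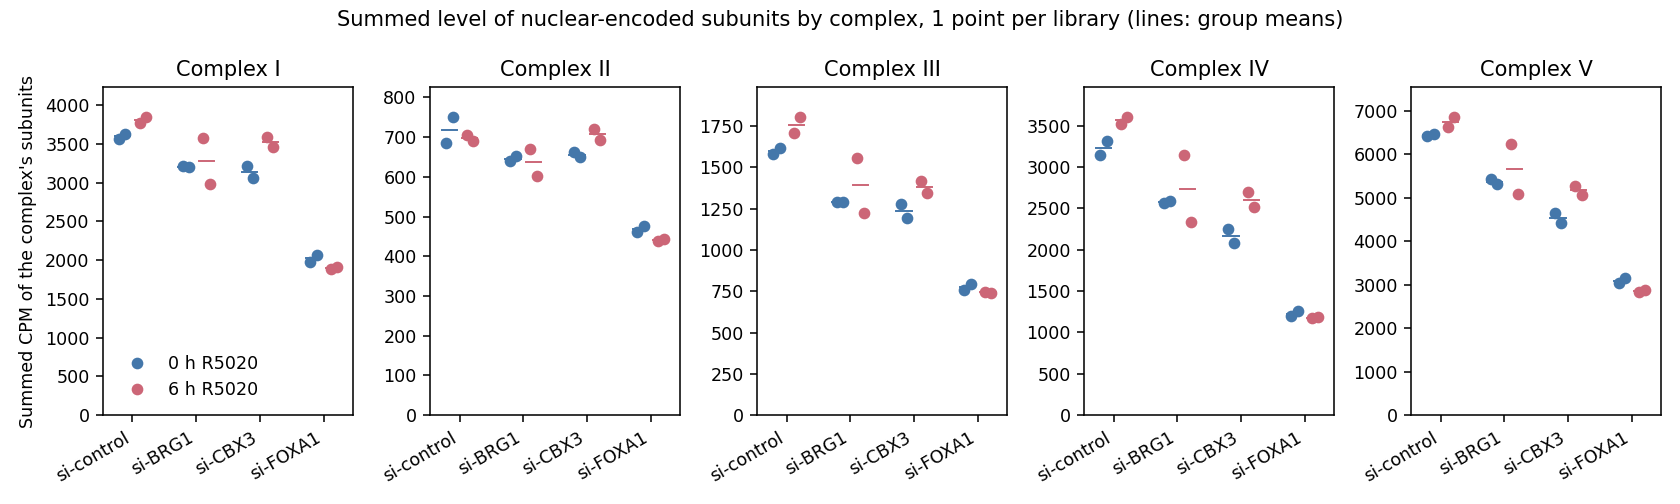
Summed level of the nuclear-encoded subunits of each complex (y axis, CPM scaled by TMM, from 0) in each library, by siRNA (x axis) and time (0 h in blue, 6 h in red), with lines at group means. The si-FOXA1 libraries are the lowest in every complex, and the 2 si-BRG1 libraries at 6 h lie apart in all 5 panels.

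By complex, the mean at 0 h in si-FOXA1 was 2026 ± 64.4 CPM for complex I against 3596 ± 48.0 CPM in si-control (SD, n = 2 in each group). For complex II it was 469 ± 10.6 against 718 ± 46.0 CPM, and for complex III 775 ± 27.2 against 1599 ± 26.8 CPM. Complex IV had 1225 ± 45.5 against 3230 ± 124 CPM, and complex V had 3097 ± 90.9 against 6442 ± 34.5 CPM. Complex IV thus had the lowest level relative to si-control and complex II the highest. In si-CBX3 the means were 3132 ± 111, 656 ± 8.06, 1237 ± 58.8, 2166 ± 115 and 4537 ± 167 CPM for complexes I to V, and in si-BRG1 they were 3205 ± 12.1, 646 ± 8.67, 1290 ± 3.34, 2574 ± 20.4 and 5373 ± 85.3 CPM.

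With FOXA1 depleted, 75 of the 82 tested members fell before hormone and 2 rose (edgeR's quasi-likelihood test, adjusted p below 0.05 over all genes). Of all 18806 genes tested, 33.5% were called lower and 40.0% higher in this comparison. The median log2 fold change was -1.03 over the members and 0.11 over all genes, and 77 of 82 members were negative. All 4 members of complex II and all 9 of complex III fell, as did 33 of 37 in complex I, 12 of 14 tested in complex IV and 17 of 18 tested in complex V. The complex medians were -0.99, -0.65, -1.11, -1.28 and -1.02 for complexes I to V. The members named by rule were recomputed under the other settings, and all 279 of those values kept their direction and their call. That rule in part picks called members with large changes, so this does not show that all 75 calls are stable.

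**Figure D2:**
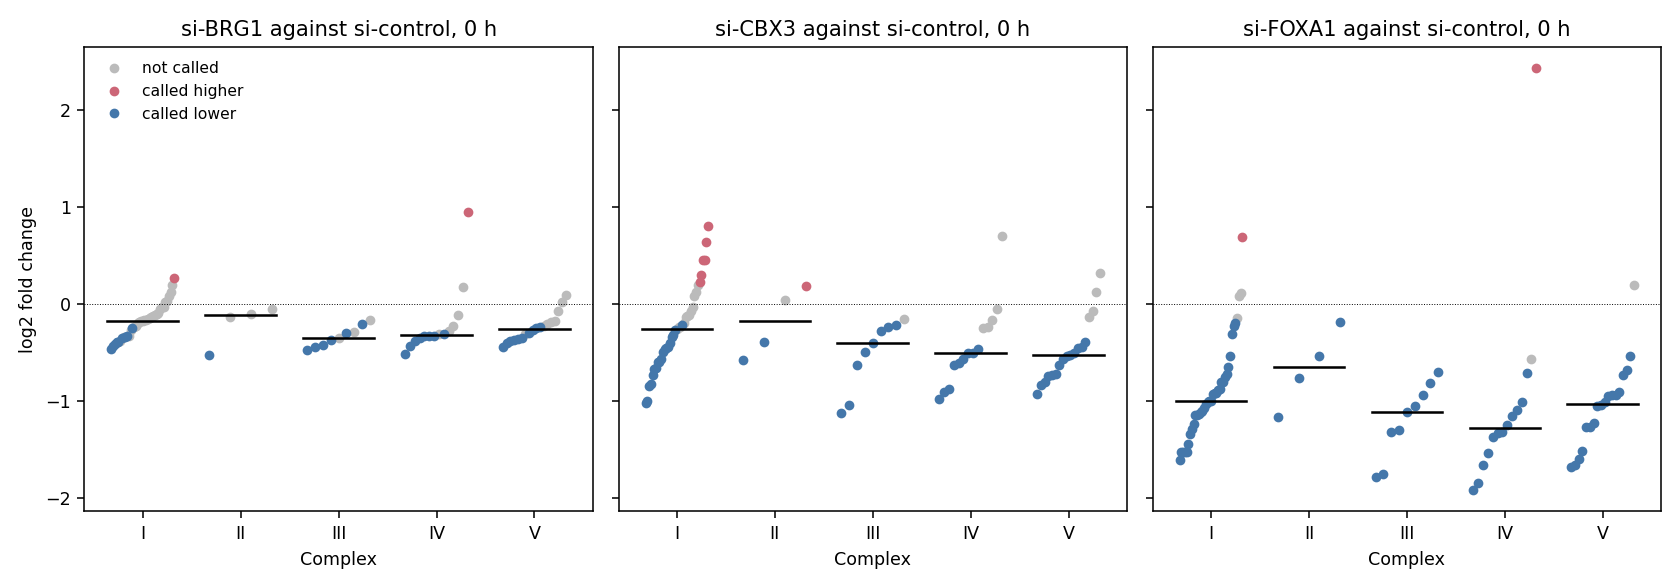
Log2 fold change of each tested member at 0 h against si-control (y axis, edgeR), ordered within each complex (x axis), in 1 panel per siRNA; black lines are complex medians and colour shows the call at adjusted p below 0.05. In si-FOXA1 75 points are called lower, against 52 in si-CBX3 and 34 in si-BRG1.

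COX7A2, a small subunit of complex IV (chromosome 6, 75947391 to 75960039, minus strand, hg19), fell most among the members of its complex. Its CPM at 0 h were 172 and 184 in si-control, 135 and 144 in si-BRG1, 102 and 89.0 in si-CBX3 and 45.8 and 48.5 in si-FOXA1. At 6 h they were 184 and 190 in si-control, 178 and 129 in si-BRG1, 121 and 113 in si-CBX3 and 44.4 and 46.3 in si-FOXA1. All 4 si-FOXA1 libraries were below every other library, and the log2 fold change at 0 h was -1.92 (SE 0.11, adjusted p = 2e-10 by edgeR). NDUFA4, which was first assigned to complex I and is now placed in complex IV, had 554 and 626 CPM in si-control, 465 and 506 CPM in si-BRG1, 348 and 297 CPM in si-CBX3 and 159 and 170 CPM in si-FOXA1 at 0 h. Its fold change in si-FOXA1 was -1.84 (SE 0.12) on the log2 scale, again with no overlap. COX7C (-1.65) and COX6A1 (-1.54) followed, whereas COX5B (-0.70) fell least among the 12 ubiquitous subunits of complex IV, all of which fell.

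In complex III, UQCR10 (chromosome 22, 30163358 to 30166402, plus strand, hg19), a small subunit without a redox centre, fell most. It had 155 and 157 CPM in si-control and 43.4 and 47.3 CPM in si-FOXA1, with a log2 fold change of -1.78 (SE 0.11, adjusted p = 4.68e-10 by edgeR). The 6 small subunits had a median of -1.30, and the 2 core proteins UQCRC1 (-0.81) and UQCRC2 (-0.70) and the Rieske iron-sulphur protein UQCRFS1 (-0.93) stood at -0.81 as a group. UQCRH (-1.05) and UQCRHL (-1.29) are close copies, so fragments may be split between them and their values are uncertain.

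In complex II the membrane anchors fell further than the catalytic subunits in these values, though the difference between the groups was not tested. SDHC, an anchor, had 247 and 290 CPM in si-control and 118 and 122 CPM in si-FOXA1 (log2 fold change -1.16, SE 0.10, adjusted p = 2.59e-08 by edgeR). SDHA, the flavoprotein that oxidises succinate, had 263 and 254 CPM against 222 and 234 CPM (-0.18, SE 0.06). Both pairs of libraries were apart, and over all 16 libraries SDHA varied least of the members above 1 CPM, from 220 to 298 CPM. SDHB, the iron-sulphur subunit, stood at -0.53 and the anchor SDHD at -0.76.

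In complex I, NDUFB3 (chromosome 2, 201936156 to 201950473, plus strand, hg19), an accessory subunit of the membrane arm, fell most. Its CPM were 65.7 and 63.9 in si-control and 20 and 22.5 in si-FOXA1, a log2 fold change of -1.61 (SE 0.12, adjusted p = 2.22e-09 by edgeR). All 20 accessory subunits of the membrane arm fell, with a median of -1.01. Of the 7 core subunits, which carry the flavin and the iron-sulphur clusters, 6 fell, with a median of -0.72. NDUFV1, the subunit that binds NADH (chromosome 11, 67374323 to 67380006, plus strand, hg19), was the exception, with 117 and 113 CPM in si-control and 124 and 126 CPM in si-FOXA1 (0.12, SE 0.07, adjusted p = 0.117 by edgeR). NDUFS6 (-0.15) and NDUFV3 (0.09), both of the peripheral arm, also missed the threshold.

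In complex V, ATP5MJ, a small membrane subunit (chromosome 14, 104378625 to 104394606, minus strand, hg19), fell most. It had 161 and 185 CPM in si-control and 52.4 and 55.4 CPM in si-FOXA1, a log2 fold change of -1.68 (SE 0.13, adjusted p = 6.14e-09 by edgeR). ATP5MC3, 1 of the 3 genes of the c subunit, stood at -1.66, against -0.90 for ATP5MC1 and -0.68 for ATP5MC2. The 4 tested genes of the peripheral stalk had a median of -1.37, the 5 F1 genes -1.01 and the 5 tested small membrane subunits -1.04. ATP5F1D, the delta subunit of the central stalk (chromosome 19, 1241749 to 1244824, plus strand, hg19), did not fall: its CPM were 31.1 and 31.7 in si-control and 36.6 and 35.5 in si-FOXA1 (0.20, SE 0.14, adjusted p = 0.208 by edgeR). ATP5IF1, the inhibitor that holds back ATP hydrolysis, stood at -0.54.

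The 2 members that rose in si-FOXA1 had low levels. NDUFA4L2, the hypoxia-linked relative of NDUFA4 (chromosome 12, 57628686 to 57634498, minus strand, hg19), had 0.376 and 0.547 CPM in si-control and 2.60 and 2.36 CPM in si-FOXA1 (log2 fold change 2.43, SE 0.28, adjusted p = 5.38e-07 by edgeR). NDUFA7, whose exons overlap another gene as given above, rose by 0.69 (SE 0.24) to 2.12 and 1.93 CPM. COX7B2, the testis form of COX7B, was not called (-0.56, SE 0.40).

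**Figure D3:**
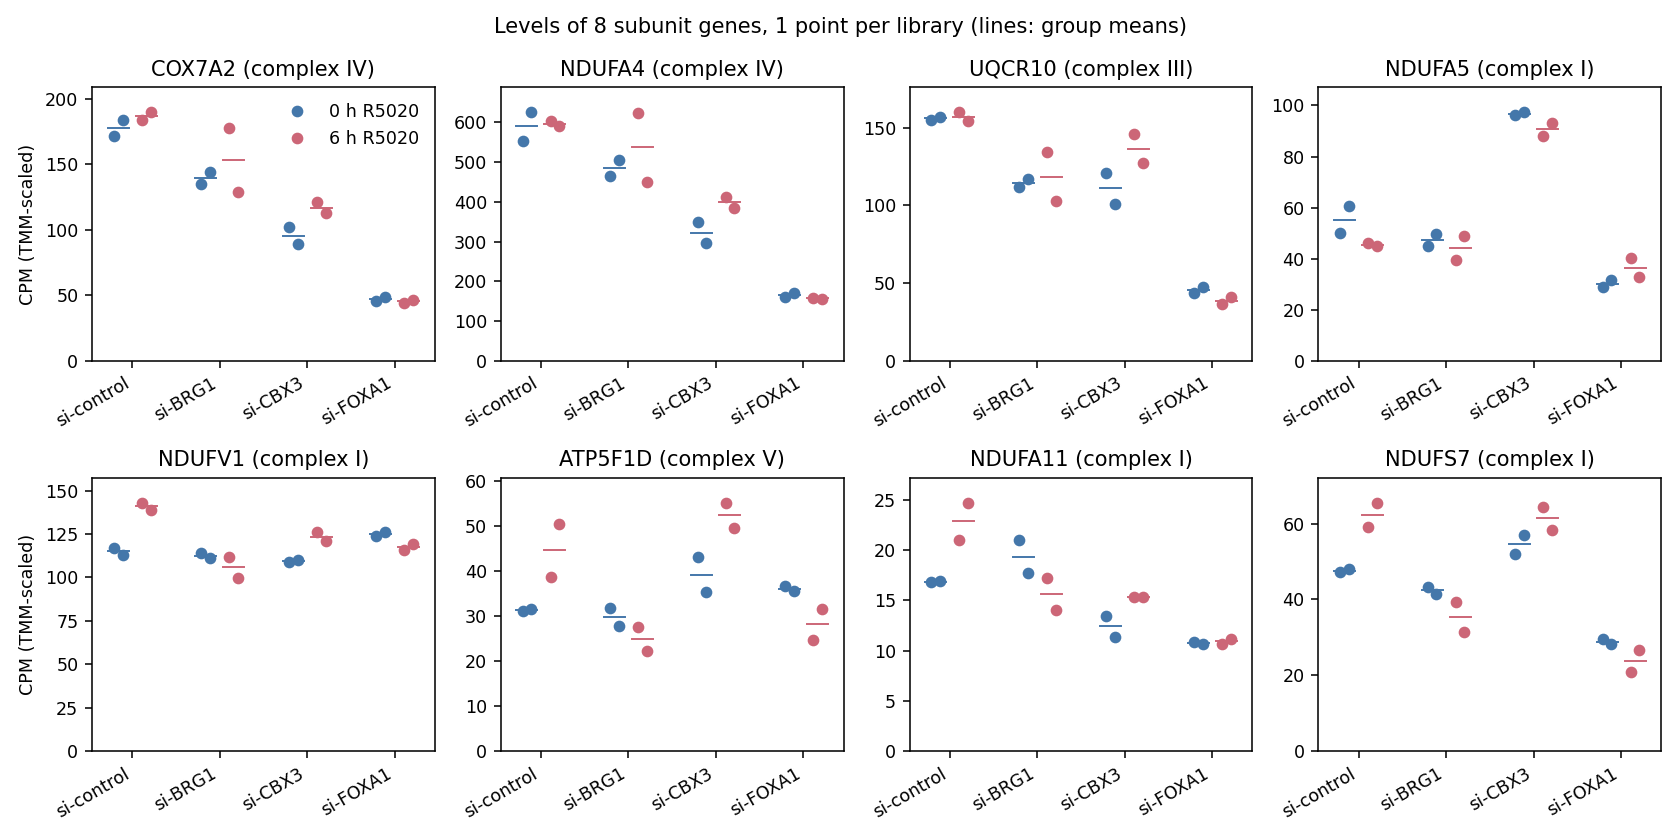
Level of 8 subunit genes in every library (y axis, CPM scaled by TMM, from 0) by siRNA (x axis) and time (0 h in blue, 6 h in red), with lines at group means. COX7A2, NDUFA4 and UQCR10 have their lowest values in si-FOXA1, NDUFA5 has its highest in si-CBX3, and NDUFV1 stays between 99.8 and 143 CPM.

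With CBX3 depleted, 52 of the 82 tested members fell before hormone and 7 rose, against 26.0% of all genes called lower and 28.1% called higher. The median log2 fold change was -0.42 over the members and 0.05 over all genes. The calls lower were 19 of 37 in complex I, 2 of 4 in complex II, 8 of 9 in complex III, 9 of 14 tested in complex IV and 14 of 18 tested in complex V. Of the 7 calls higher, 6 were in complex I and the other was SDHA.

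UQCR11, a small subunit of complex III (chromosome 19, 1597171 to 1605480, minus strand, hg19), fell most, from 56.0 and 60.5 CPM to 27.2 and 26.3 CPM (log2 fold change -1.12, SE 0.11, adjusted p = 1.65e-07 by edgeR). NDUFA2 of the peripheral arm of complex I fell from 135 and 149 CPM to 73.0 and 66.8 CPM (-1.02, SE 0.13). COX7C (-0.98, SE 0.12) and ATP5MJ (-0.92, SE 0.13) fell most in complexes IV and V, and SDHD (-0.57) in complex II. For each of these the si-CBX3 libraries lay below both si-control libraries. Within the ATP synthase, ATP5MC1 (-0.73) and ATP5MC3 (-0.83) fell and ATP5MC2 was not called (-0.07), although the 3 genes encode the same mature protein.

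NDUFA5, of the peripheral arm of complex I (chromosome 7, 123177051 to 123198309, minus strand, hg19), rose most in si-CBX3. Its CPM at 0 h were 50 and 60.5 in si-control, 45.1 and 49.8 in si-BRG1, 96.1 and 97.4 in si-CBX3 and 28.8 and 31.5 in si-FOXA1. Both si-CBX3 libraries were above all others and both si-FOXA1 libraries below, and the log2 fold change was 0.81 (SE 0.11, adjusted p = 1.27e-05 by edgeR) in si-CBX3 and -0.87 in si-FOXA1. Among the others that rose were NDUFS6 (0.64), NDUFA8 (0.45), NDUFV3 (0.30), NDUFS8 (0.23) and SDHA (0.19). The SDHA call was lost in all 4 cases of leaving out 1 library. NDUFS8 belongs to the core of complex I, of which 2 of 7 genes rose and 2 fell, while 12 of the 20 accessory genes of its membrane arm fell and 1 rose.

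With BRG1 depleted, 34 of the 82 tested members fell before hormone and 2 rose, against 13.4% of all genes called lower and 15.1% called higher. The median log2 fold change was -0.24 over the members and 0.02 over all genes, and 72 members were negative. The calls lower were 9 in complex I, 1 in complex II, 6 of 9 in complex III, 8 in complex IV and 10 in complex V. The changes were small: SDHD fell by 0.53 on the log2 scale (SE 0.13, adjusted p = 0.00492 by edgeR), from 92.6 and 127 CPM to 71.2 and 81.5 CPM. The si-control libraries of SDHD differed by more than the gap between the groups, which did not overlap.

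In complex IV, COX7C fell by 0.51 (SE 0.12), in complex III UQCRB, a ubiquinone-binding subunit, by 0.47 (SE 0.12), in complex I NDUFB3 by 0.46 (SE 0.11) and in complex V ATP5MC3 by 0.45 (SE 0.09), all on the log2 scale in si-BRG1. Of the members that rose, COX7B2, at low level, did so by 0.95 (SE 0.34). The count depended on single libraries and on scaling: leaving out 1 library at a time gave between 11 and 31 members lower, and scaling by library totals gave 19. DESeq2 gave 46.

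The 3 knockdowns were compared with the same si-control libraries, so their values are set side by side and their likeness is not a separate result. Of the 82 tested members, 30 (36.6%) were called lower in all 3 knockdowns. The share was 8.25% of all genes tested and 30.4% of the other short, abundant genes described next. Not all 82 members meet the limits of length and level of those genes, so the 2 sets are not alike in these. Ribosomal protein genes that meet the limits are also among those other genes. A further 26 members (31.7%) were lower in 2 knockdowns and 19 (23.2%) in 1. These shares were 13.9% and 20.4% of all genes, and 27.7% and 24.3% of the other short, abundant genes. The fold change was lowest in si-FOXA1, then si-CBX3, then si-BRG1 for 70.7% of tested members and 19.5% of all genes. This order held for 46.4% of the other short, abundant genes. The fold change was lowest in si-FOXA1 for 93.9% of members, 37.5% of all genes and 71.9% of the other short, abundant genes. ATP5F1B, the most abundant, had 2180 and 2160 CPM in si-control, 1860 and 1750 CPM in si-BRG1, 1530 and 1490 CPM in si-CBX3 and 1120 and 1150 CPM in si-FOXA1. Its 4 groups did not overlap.

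The median length of the members was below that of all genes tested (2317.5 against 3880.5 bp). Many other genes that are both short and abundant were also called lower in the knockdowns. The comparison sets by length and level were chosen after values had been seen and carry no test. Genes up to 2317.5 bp long, the median length of the members, had medians of -0.01, 0.02 and 0.11 in si-BRG1, si-CBX3 and si-FOXA1, close to those of all genes. Among 563 other genes of at most that length and with a mean log2 CPM of at least 5, 39.6%, 56.7% and 74.6% were called lower, with medians of -0.19, -0.29 and -0.69. Only the members were left out of this set, so ribosomal protein genes that meet both limits stay in it. Most ribosomal protein genes fell in si-FOXA1, as given below, so these shares do not describe length and level alone. Only 38 of the 82 tested members meet both limits, and of these 42.1%, 71.1% and 94.7% were called lower, with medians of -0.27, -0.46 and -1.05. Over all 82 tested members the shares were 41.5%, 63.4% and 91.5%. Within the members, the 41 shorter genes had a median of -1.05 and the 41 longer ones -0.92 in si-FOXA1.

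Genes that build or feed the chain were read from lists of other mitochondrial functions. Their counts stand beside 33.5% of all genes called lower in si-FOXA1. Of 25 tested complex IV assembly factors, 19 fell in si-FOXA1, with a median of -0.76, among them COA6 (-1.81), COX14 (-1.73) and the copper chaperone COX17 (-1.20). Of 19 complex I assembly factors, 13 fell, led by p-value by TMEM126B (-1.86) and TMEM126A (-1.57), which act in building the membrane arm. All 5 tested complex V assembly factors fell, TMEM70 by 1.24 on the log2 scale, whereas 4 of 9 for complexes II and III fell and their median was -0.01. LYRM7, a chaperone of the Rieske protein, rose by 1.11. Of 18 genes of the citric acid cycle and pyruvate dehydrogenase, 14 fell in si-FOXA1, with SUCLG1 at -1.45 and PDHX at -1.41. Of 75 mitochondrial ribosomal proteins 63 fell (median -0.88), and of 79 cytosolic ribosomal proteins 70 fell (-0.76).

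Regulators of mitochondrial biogenesis did not all move the same way in si-FOXA1. Of 18 tested, 11 fell, among them the coactivator PPARGC1A (-1.81), the mitochondrial transcription factors TFB2M (-1.20) and TFAM (-1.01), while the related coactivator PPRC1 rose by 1.18. In si-CBX3 11 of these 18 fell and in si-BRG1 6 did. Of all genes tested, 33.5%, 26.0% and 13.4% were called lower in si-FOXA1, si-CBX3 and si-BRG1. Cytosolic ribosomal proteins were called lower in 70 of 79 cases in si-BRG1 and 71 in si-CBX3, with medians of -0.46 and -0.66. Those medians lie below the member medians of -0.24 and -0.42.

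**Figure D4:**
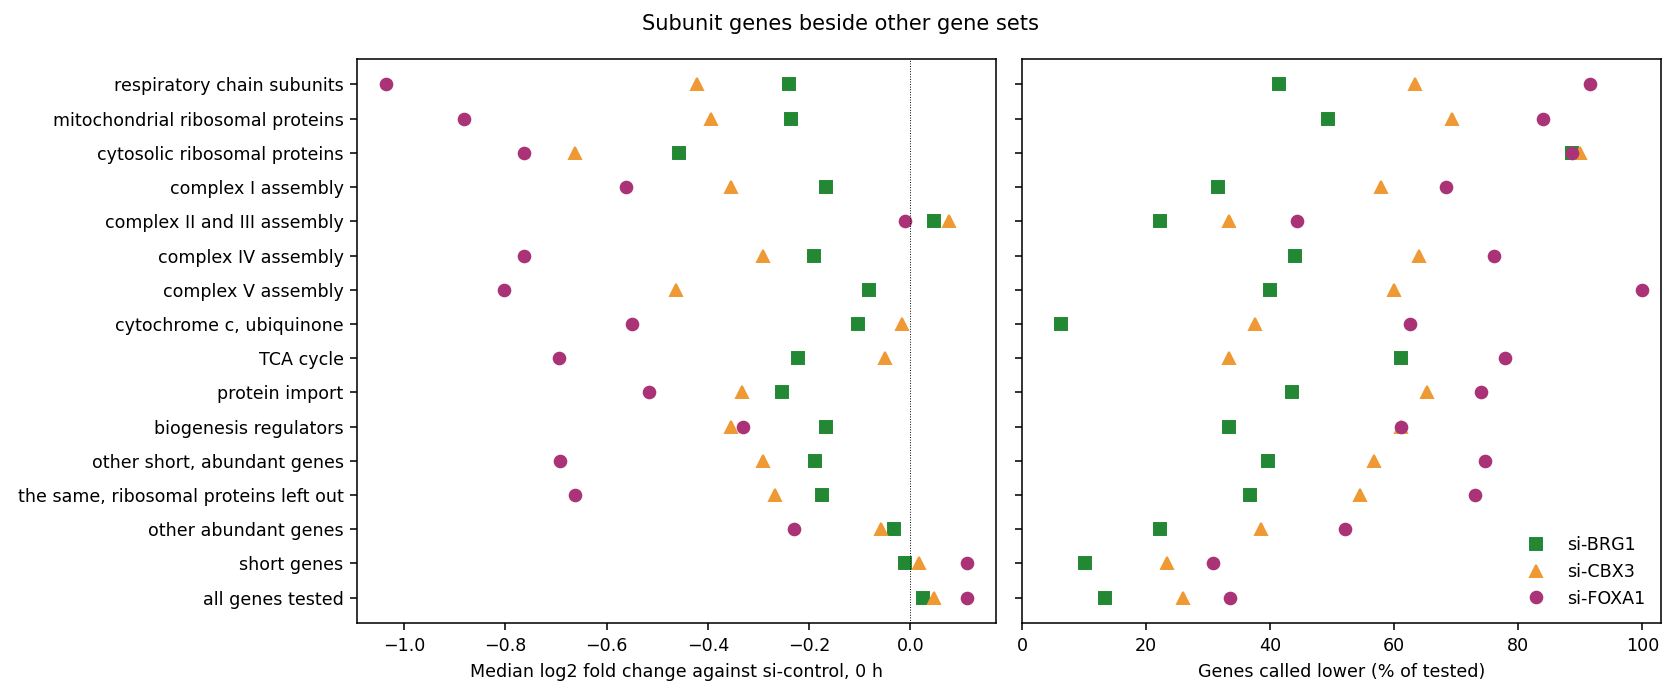
Median log2 fold change at 0 h against si-control (left, x axis) and percent of tested genes called lower (right, x axis) for the subunit genes and other gene sets (y axis), with 1 symbol per siRNA. In si-FOXA1 the subunits have the lowest median, -1.03. The cytosolic ribosomal proteins lie lower than the subunits in si-CBX3 and si-BRG1, and the complex V assembly factors do so in si-CBX3.

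The response to R5020 is read here as libraries after 6 h of it against libraries at 0 h. No library, with or without siRNA, was kept for 6 h without R5020. A change by the progestin therefore cannot be told apart from one by the time in culture. In si-control cells 13 of 82 tested members rose and 1 fell, against 19.5% of all genes called higher and 18.1% called lower, so the number that rose was below the background share and the number that fell further below. The median log2 fold change was 0.11 over the members and -0.02 over all genes, and 65 members were positive. The hormone genes FKBP5 (3.82), SGK1 (5.96) and TSC22D3 (1.31) rose on the log2 scale in the same libraries.

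ATP5F1D rose most in si-control, from 31.1 and 31.7 CPM to 38.8 and 50.4 CPM (log2 fold change 0.51, SE 0.14, adjusted p = 0.00883 by edgeR). NDUFA11, a membrane arm subunit of complex I (chromosome 19, 5891287 to 5904017, minus strand, hg19), rose from 16.8 and 16.9 CPM to 21.0 and 24.7 CPM (0.44, SE 0.11, adjusted p = 0.00572 by edgeR). In both genes the 6 h libraries lay above the 0 h ones but apart from each other. COX5B rose by 0.42, the Rieske protein UQCRFS1 by 0.38, NDUFS7, a core iron-sulphur subunit, by 0.39 and NDUFV1 by 0.29. NDUFB5 fell by 0.22 on the log2 scale (SE 0.08, adjusted p = 0.0482 by edgeR), but this call was lost when any 1 of 3 of the 4 libraries was left out. Leaving out 1 library at a time left between 1 and 8 members higher, and scaling by library totals gave 7.

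In si-CBX3 cells 30 of 82 tested members rose and none fell, against 20.4% of all genes called higher and 20.5% called lower. By edgeR 0 members were lower also at an unadjusted p below 0.05, and DESeq2 gave 0. The median log2 fold change was 0.22 over the members and -0.03 over all genes, and 74 members were positive. The rises were in complex I (12), II (1), III (4), IV (7) and V (6). COX7A2L, which helps join complexes III and IV into supercomplexes, rose by 0.45 (SE 0.10, adjusted p = 0.00161 by edgeR), NDUFA13 by 0.43, ATP5F1D by 0.42, UQCRQ by 0.37 and SDHC by 0.26. Of the exon bases of NDUFA13, 35.9% lie in another gene of the same strand. Of the 563 other short, abundant genes 37.1% were called higher in si-CBX3, against 47.4% of the 38 members of that length and level. The count was not stable: it was 3 with scaling by library totals, which moves the median of all genes from -0.03 to -0.12, 1 without replicate 2 at 0 h, 2 without replicate 1 at 6 h and 14 without replicate 2 at 6 h.

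In si-FOXA1 cells 8 of 82 tested members fell and 1 rose, against 19.6% of all genes called lower and 19.1% called higher. The median log2 fold change was -0.09 over the members and -0.04 over all genes, and 61 members were negative. ATP5MC1 fell by 0.43 on the log2 scale (SE 0.11, adjusted p = 0.00538 by edgeR), and NDUFA3, COX6A1, COX6B1, NDUFV3, ATP5MF and ATP5IF1 fell by 0.37, 0.33, 0.31, 0.29, 0.28 and 0.22. COX6C rose by 0.29 (SE 0.10). Leaving out 1 library at a time gave between 1 and 13 members lower.

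In si-BRG1 cells 2 of 82 tested members rose and 3 fell, against 18.6% of all genes called higher and 17.1% called lower. NDUFS1, the largest core subunit of complex I, rose by 0.29 (SE 0.06, adjusted p = 0.00136 by edgeR) and COX7A2L by 0.27. NDUFA11 fell by 0.32 and NDUFS8 by 0.29 on the log2 scale. The 2 libraries at 6 h lay apart here, and the number of members higher was 36 without replicate 2 at 6 h, while the number lower was 13 without replicate 1 at 6 h.

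**Figure D5:**
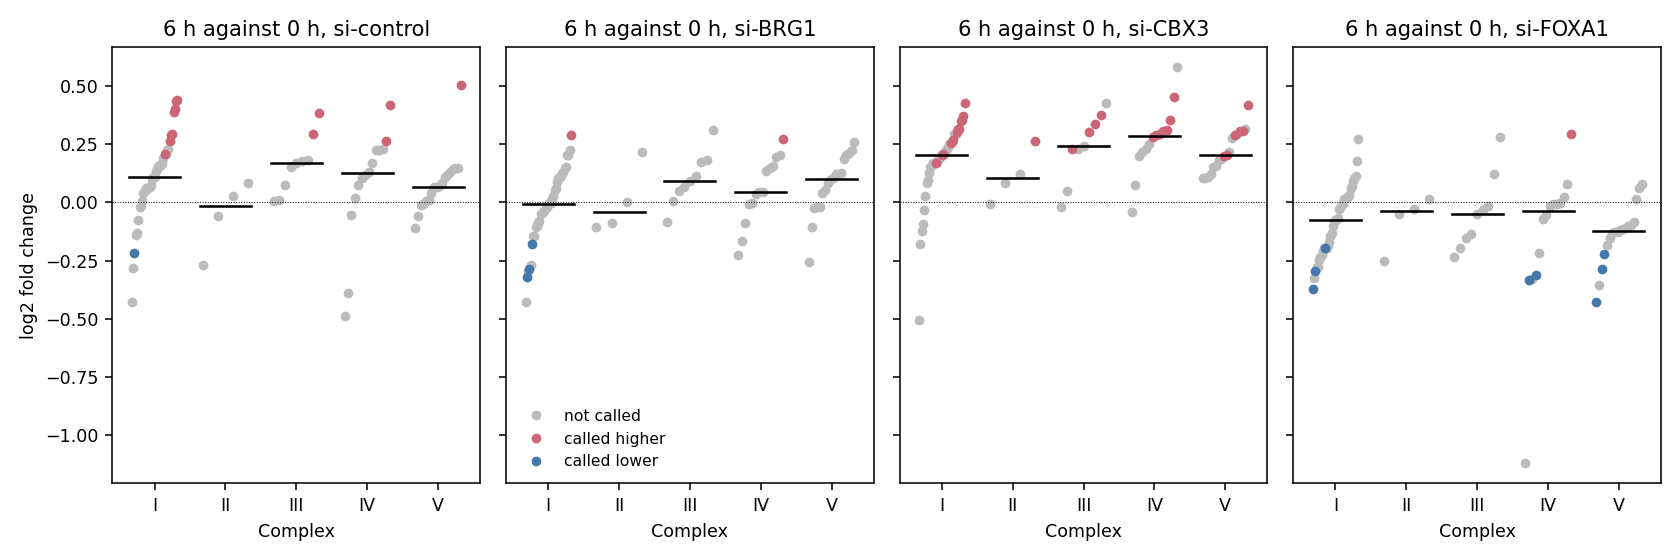
Log2 fold change of each tested member at 6 h against 0 h of R5020 (y axis, edgeR), ordered within each complex (x axis), in 1 panel per siRNA; black lines are complex medians and colour shows the call at adjusted p below 0.05. The medians lie above 0 in all 5 complexes in si-CBX3 and below 0 in all 5 in si-FOXA1.

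Whether the response to R5020 differed between a knockdown and si-control was tested as an interaction. For si-FOXA1, 16 of 82 tested members had a lower response than in si-control and 1 a higher one, against 15.7% of all genes with a lower response and 13.0% with a higher one. ATP5F1D differed most: its CPM went from 31.1 and 31.7 to 38.8 and 50.4 in si-control but from 36.6 and 35.5 to 24.6 and 31.7 in si-FOXA1, a difference of -0.86 (SE 0.20, adjusted p = 0.0039 by edgeR). NDUFS7 (-0.67), COX6A1 (-0.56) and UQCRFS1 (-0.52) differed in the same direction, all on the log2 scale. NDUFA5 went the other way: it had 50 and 60.5 CPM at 0 h and 46.0 and 44.8 CPM at 6 h in si-control, and 28.8 and 31.5 CPM at 0 h and 40.3 and 32.6 CPM at 6 h in si-FOXA1, a difference of 0.56 (SE 0.16). Among the 563 other short, abundant genes 39.1% had a lower response in si-FOXA1, against 28.9% of the 38 members of that length and level. Leaving out 1 library at a time gave between 4 and 19 members with a lower response.

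For si-BRG1, 4 members had a lower response and none a higher one, against 3.72% and 1.49% of all genes. By edgeR 1 member was higher at an unadjusted p below 0.05, and DESeq2 called 0. NDUFA11 differed by -0.76 (SE 0.16, adjusted p = 0.0152 by edgeR): it had 21.0 and 17.7 CPM at 0 h and 17.2 and 14.0 CPM at 6 h in si-BRG1, the opposite direction to si-control. ATP5F1D differed by -0.76, NDUFS7 by -0.66 and NDUFV1 by -0.38. The count was 20 without replicate 1 of si-BRG1 at 6 h, and 0 in the lowest case of leaving out 1 library. For si-CBX3, NDUFB5 alone differed (0.39, SE 0.12, adjusted p = 0.0466 by edgeR), against 4.63% of all genes with a higher and 4.36% with a lower response. That call was lost with scaling by library totals (0.36) and in 7 of the 8 cases of leaving out 1 library (0.30 to 0.56 over the 8). By edgeR 0 members had a lower response at an unadjusted p below 0.05 there, and DESeq2 called 0.

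Cells without siRNA had been sequenced once at each time, so their difference has no replicate check. The deposited RPKM of the members, summed over transcripts, came to 6475 at 0 h and 7500 at 6 h. The median log2 ratio of RPKM plus 1 was 0.18, with 60 members above 0 and 26 below, against 0.04 over 18455 genes. ATP5F1B went from 261 to 430 RPKM (0.72), ATP5F1A from 138 to 245 RPKM (0.83) and COX5A from 26.3 to 48.5 RPKM (0.86). NDUFA11, which rose in si-control, went from 15.7 to 4.47 RPKM (-1.61). NDUFA7 (15.1 and 19.4 RPKM) and NDUFV2 (30.0 and 36.9 RPKM), low in the siRNA counts, stood among the other complex I genes in these files, which were counted by transcript. NDUFA13 had 92.3 and 120 RPKM here against a mean of 3.355 RPKM in the siRNA counts. NDUFB8, with 48.5% of its exon bases in another gene of the same strand, had 90.4 and 33.0 RPKM against 7.93 RPKM. The part of the overlap in these differences was not tested.

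BRG1 binding was given as 1 peak list at 0 min and 1 at 30 min of R5020, called by the authors. At 0 min none of the 88 members had 1 of the 2288 peaks within 5 kb of its 5′ end, and 1.89% of all tested genes did. At 30 min 2 members (2.27%) had 1 of the 6180 peaks there, against 10.3% of all tested genes. The peak near ATP5PF, a stalk subunit of the ATP synthase (chromosome 21, 27107656 to 27108843, hg19, score 69.0 in the authors' list), lay over its 5′ end. Of the exon bases of ATP5PF, 23.1% are shared with genes of the opposite strand, mainly GABPA, so distance alone does not assign the peak to ATP5PF. The peak near COX5A (chromosome 15, 75229503 to 75230466, hg19, score 56.3) ended 43 bp away. Neither peak reached the median score of its list. In si-BRG1 at 0 h COX5A fell by 0.33 (SE 0.11) on the log2 scale, a call lost in all 4 cases of leaving out 1 library, and ATP5PF was not called (-0.18, SE 0.08).

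Promoter letters were read for the 72 members with an entry in the RefSeq promoter table (GRCh38.p14, 250 bases before to 50 after a start). On either strand the NRF1 motif CGCATGCG was found for 11 members (15.3%) against 2.02% of all 35116 promoters, and the YY1 motif AAGATGGC for 12 (16.7%) against 2.89%. The motif CCGGAAG of GABP and other ETS factors was found for 21 (29.2%) against 10.3%, and the MYC E-box CACGTG for 7 (9.72%) against 7.26%. At least 1 of the 4 was found for 39 members (54.2%), against 19.9% of all promoters. A member with several starts counts when any of its entries has the motif. Over the 86 entries of the members the shares were 12.8%, 15.1%, 25.6% and 8.14% for NRF1, YY1, ETS and E-box. For the 4 motifs together no share per entry is given, so 54.2% of members and 19.9% of promoters are unlike measures. A match says that the letters are present and is not a bound site. Members with no entry included NDUFB5, NDUFB9, NDUFC2, NDUFS5, SDHC, UQCRB, UQCRHL, COX4I2, COX6C, COX7A1, ATP5F1B, ATP5F1D, ATP5MC3, ATP5MF and ATP5MGL.

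The 250 bases before the start are shown 5′ to 3′ on the gene's strand for the 2 members with a BRG1 peak and for the leading falls of complexes II, III and IV (SDHD in si-BRG1, UQCR11 in si-CBX3, COX7A2 in si-FOXA1), with motif matches in capitals. Where a gene has several starts, 1 entry with the most matches is shown: ATP5PF has 2 entries with 3 matches each, and the entry not shown holds 1 NRF1, 1 YY1 and 1 ETS match.
ATP5PF promoter, chr21:25734905-25735154, minus strand: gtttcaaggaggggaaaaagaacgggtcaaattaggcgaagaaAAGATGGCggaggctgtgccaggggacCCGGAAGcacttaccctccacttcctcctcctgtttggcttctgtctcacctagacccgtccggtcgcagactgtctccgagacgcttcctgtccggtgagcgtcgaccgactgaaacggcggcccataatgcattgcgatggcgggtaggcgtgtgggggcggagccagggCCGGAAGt
COX5A promoter, chr15:74938074-74938323, minus strand: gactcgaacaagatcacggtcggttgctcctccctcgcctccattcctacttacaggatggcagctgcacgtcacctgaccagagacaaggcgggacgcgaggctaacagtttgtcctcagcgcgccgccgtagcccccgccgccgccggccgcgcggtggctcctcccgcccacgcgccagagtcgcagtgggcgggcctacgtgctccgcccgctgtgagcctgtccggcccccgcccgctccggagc
SDHD promoter, chr11:112086623-112086872, plus strand: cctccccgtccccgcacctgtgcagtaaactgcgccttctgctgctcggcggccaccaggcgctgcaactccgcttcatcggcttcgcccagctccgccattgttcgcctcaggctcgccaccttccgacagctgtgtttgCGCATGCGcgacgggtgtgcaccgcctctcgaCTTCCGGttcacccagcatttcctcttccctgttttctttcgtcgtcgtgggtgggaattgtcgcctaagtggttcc
UQCR11 promoter, chr19:1605463-1605712, minus strand: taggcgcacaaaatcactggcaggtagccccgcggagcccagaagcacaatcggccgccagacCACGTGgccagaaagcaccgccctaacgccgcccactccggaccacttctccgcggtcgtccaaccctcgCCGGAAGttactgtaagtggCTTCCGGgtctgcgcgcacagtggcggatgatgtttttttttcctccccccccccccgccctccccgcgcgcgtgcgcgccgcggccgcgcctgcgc
COX7A2 promoter, chr6:75243802-75244051, minus strand: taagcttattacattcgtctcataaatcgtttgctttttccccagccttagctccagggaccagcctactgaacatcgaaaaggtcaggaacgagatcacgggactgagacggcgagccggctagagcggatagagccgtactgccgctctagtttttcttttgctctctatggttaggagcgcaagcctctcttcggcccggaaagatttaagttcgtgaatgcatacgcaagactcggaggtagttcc
The ATP5PF promoter holds 1 YY1 and 2 ETS matches, that of SDHD 1 NRF1 and 1 ETS match, and that of UQCR11 1 E-box and 2 ETS matches. Those of COX5A and COX7A2 hold none of the 4. The positions are those of GRCh38.p14, while the peak and gene coordinates given above are those of hg19.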

How the data were processed

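Counts of fragments per gene were deposited by the authors: per the file headers featureCounts 1.4.6-p2 counted fragments, reverse-stranded, on GENCODE genes of hg19, and per the submitters' processing notes reads were trimmed with Trimmomatic and aligned with STAR. For the cells without siRNA the authors deposited estimated reads and RPKM per transcript, per the file headers; RPKM were summed per gene, and the ratios are log2 of RPKM plus 1. The BRG1 lists were deposited by the authors as peaks with a score, 1 library per list, and the peak names are those of MACS.

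The 16 siRNA libraries were fitted together with edgeR 4.0.16 (R 4.3.3): 8 group means, 8 residual degrees of freedom, TMM scaling, the default low-count filter (18806 genes kept), quasi-likelihood F-tests, two-sided, Benjamini-Hochberg adjustment over all genes kept, calls below 0.05. DESeq2 1.42.0, other scalings, no filter, a replicate block and leaving out each library were alternatives. The fit was tested on simulated counts. CPM and RPKM here use the TMM-scaled totals and the deposited gene length. Intervals are not given, since 2 libraries a group limit the precision more than depth.

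Members named are, per comparison and complex, the called member with the largest rise and fall (mean log2 CPM of at least 3, groups not overlapping), the isoform pairs, the highest and lowest level per complex, and members lower in all 3 knockdowns; others were named after their values were seen. Members and lists were chosen with earlier results of these data known, and structural groups and length or level sets after values were seen. Named pseudogenes of 50 members held 0.386% of the members' fragments. The values of 1 member are not reported here.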

Additional observations from a re-analysis of the deposited data

Results flagged for a closer look

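A test of the difference between responses to R5020 singled out 8 values on the log2 scale (edgeR, adjusted p below 0.05). In si-BRG1 against si-control the response was lower for NDUFA11 (-0.76) and ATP5F1D (-0.76). In si-CBX3 it was higher for NDUFB5 (0.39), a call lost with scaling by library totals and in 7 of 8 cases of leaving out 1 library. In si-FOXA1 it was higher for NDUFA5 (0.56) and lower for ATP5F1D (-0.86), NDUFS7 (-0.67), COX6A1 (-0.56) and UQCRFS1 (-0.52). Leaving out 1 of 8 libraries at a time lost the call in 3 cases for NDUFA11, 6 for ATP5F1D in si-BRG1, 4 for NDUFA5, 4 for COX6A1, 2 for UQCRFS1, and 0 for NDUFS7 and for ATP5F1D in si-FOXA1. All 3 tests use the same si-control libraries, in which the ATP5F1D values at 6 h were 38.8 and 50.4 CPM.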

How the results depend on the processing

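With 2 libraries a group, small changes are the least certain. No value changed direction among those called. Of 1121 values recomputed for named members, which were picked in part for being called, 961 kept their direction and call and 160 lost the call. For si-FOXA1 against si-control at 0 h 279 of 279 kept it, for si-CBX3 285 of 297, for si-BRG1 211 of 288, and for hormone responses and their differences 186 of 257. Scaling by library totals shifted the median of all genes in si-FOXA1 from 0.11 to 0.33, while the members stood -1.15 from it under both scalings.

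In the counts of members that follow, responses are to R5020, and differences are from the response in si-control. Counts over all genes moved with the settings as well. For the response in si-CBX3, scaling by library totals took the genes called higher from 3842 to 2932. Scaling by library totals gave 7 higher and 4 lower in si-control, 1 higher and 7 lower in si-BRG1, 3 higher and 1 lower in si-CBX3. Against si-control at 0 h it gave 19 lower in si-BRG1, 12 higher in si-CBX3 and 5 higher in si-FOXA1, and as differences 0 higher in si-CBX3 and 2 higher in si-FOXA1. Without the filter, responses were 4 lower in si-control, 10 higher in si-BRG1, 46 higher in si-CBX3, and 2 higher and 13 lower in si-FOXA1. It also gave 1 higher in si-BRG1 at 0 h, and 4 and 2 higher differences in si-CBX3 and si-FOXA1. DESeq2 and DESeq2 size factors gave 1 higher in si-BRG1 at 0 h, and DESeq2 2 higher differences in si-FOXA1. The differences between replicates 1 and 2 at 0 h and at 6 h correlated at -0.078 in si-control, 0.3 in si-BRG1, 0.152 in si-CBX3 and 0.3 in si-FOXA1. Over all pairs of groups the correlations ran from -0.425 to 0.544, so they cannot decide whether the numbers pair libraries. The replicate block gave 0 lower responses in si-control, 1 higher in si-BRG1 at 0 h, and 0 and 2 higher differences in si-CBX3 and si-FOXA1, so both NDUFB5 calls were lost under it. Peaks at or above their median score were near 0 members at 30 min. Without siRNA the median ratio was 0.19 with a pseudocount of 0.1 and 0.20 for genes of at least 1 RPKM.

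Leaving out 1 library at a time, responses ranged from 1 to 8 higher and 0 to 4 lower in si-control, 1 to 36 and 1 to 13 in si-BRG1, 1 to 25 higher in si-CBX3, and 0 to 2 and 1 to 13 in si-FOXA1. At 0 h the ranges were 0 to 1 higher and 11 to 31 lower in si-BRG1, 5 to 6 and 44 to 53 in si-CBX3, and 1 to 2 and 72 to 76 in si-FOXA1. Differences ranged from 0 to 1 higher and 0 to 20 lower in si-BRG1, 0 to 5 higher in si-CBX3, and 0 to 2 and 4 to 19 in si-FOXA1. A group left with 1 library is assumed to vary like the others.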
